A study of Mus musculus with 2 samples.

Results

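Mir122, Mir192, Mir194-1, Mir194-2, Mir215 and Mir375 are miRNA genes best known from the liver, the gut and the pancreas, and their counts were examined here in mouse heart. They are 6 of the 2202 miRNA genes in each table of counts, taken by symbol after the gene identifiers had been matched to GENCODE M21. MicroRNA-seq, which reads RNA inserts under 30 nt, had been done on heart total RNA of female B6CASTF1/J mice aged 10 days, an F1 cross between C57BL/6J and CAST/EiJ. There was 1 group of 2 hearts, replicates 1 and 2, each with 1 library, and no treatment or transgene is named. The labels number the females separately but give a single donor record for both biosamples. SDs therefore measure the spread between these hearts, part of which may be technical. The p-values ask only whether the 2 libraries differ beyond counting error and measure no spread between hearts. With 1 group the study implies no contrast, and the questions here are how much of each miRNA the hearts held and how far the hearts differed.

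A miRNA is cut from a hairpin precursor into a short mature strand that guides Argonaute proteins to mRNAs, chiefly through its seed, bases 2 to 8. Mir122 is the hallmark miRNA of hepatocytes, where it acts on cholesterol and fatty acid metabolism. Mir192, Mir194-1, Mir194-2 and Mir215 are known from intestinal, liver and kidney epithelium. Mir375 is known from endocrine cells of the pancreas, where it restrains insulin secretion, and from other neuroendocrine cells.

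The mature 5p strands of Mir192 and Mir215 are shown because they share a seed (capitals), which makes them 1 seed family counted as 2 genes. Sequences come from RefSeq on GRCm38.p6, the assembly that mm10 also denotes. They were used for 5 of the 6 genes, and no RefSeq sequence of Mir122 was used here.
miR-192-5p: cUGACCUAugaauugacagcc
miR-215-5p: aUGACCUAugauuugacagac
Over 21 bases, 18 matched. The substitutions from miR-192-5p to miR-215-5p, counted from 1 at the 5′ end, were C1A, A12U and C20A, and none lies in the seed. Among the mature miRNAs of the RefSeq table used here, which is not complete, no other had this seed. The longest run that the Mir192 hairpin shared with another miRNA gene, on either strand, was 13 nt, and that of the Mir215 hairpin was 11 nt. A full-length read of either strand therefore matches 1 annotated miRNA hairpin exactly.

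The hairpins of Mir194-1 and Mir194-2 are shown because they hold the same mature strand, miR-194-5p, in capitals.
Mir194-1: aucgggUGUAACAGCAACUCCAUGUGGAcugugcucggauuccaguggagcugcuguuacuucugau
Mir194-2: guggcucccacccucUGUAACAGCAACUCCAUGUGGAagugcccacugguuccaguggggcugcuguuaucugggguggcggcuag
The shared run was 22 nt, which is the whole of miR-194-5p and no more. A read with these 22 letters alone fits both hairpins and cannot be assigned to either gene in tables that leave reads of more than 1 position unassigned. The 3p strands of the pair differ, with the seed in capitals in each.
miR-194-1-3p: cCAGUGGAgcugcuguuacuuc
miR-194-2-3p: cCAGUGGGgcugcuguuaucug
From miR-194-1-3p to miR-194-2-3p the substitutions were A8G, C19U, U20C and C22G, of which A8G lies in the seed. Counts of Mir194-1 and Mir194-2 therefore cover reads that one hairpin alone can give, and the levels of both genes are uncertain.

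The hairpin of Mir375 is shown because of its base composition. The 5p strand is in capitals, and the 3p strand was not matched.
Mir375: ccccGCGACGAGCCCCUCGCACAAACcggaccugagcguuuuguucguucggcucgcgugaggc
Of its 64 bases, 67.2% were G or C, against 43.8% for the hairpin of Mir215, 50.6% for Mir192, 50.7% for Mir194-1 and 60.5% for Mir194-2. The deposited counts are per hairpin gene and do not separate the 5p and 3p strands.

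Mir192, Mir215 and the Mir194 genes form clusters that each pair 1 gene of either seed family (coordinates on mm10). Mir194-2 (ENSMUSG00000065582.1, chr19:6264643-6264728) and Mir192 (ENSMUSG00000065523.1, chr19:6264844-6264932) lie on the plus strand, 115 bases apart, and overlap no other gene of the M21 annotation. Their nearest protein-coding gene is Atg2a. Mir194-1 (ENSMUSG00000065581.1, chr1:185313319-185313385) and Mir215 (ENSMUSG00000065562.1, chr1:185313581-185313692) lie on the plus strand, 195 bases apart. Both are within introns of Iars2, a mitochondrial isoleucyl-tRNA synthetase gene on the minus strand, and within the noncoding gene 2010103J01Rik on the plus strand, one of whose exons overlaps Mir215. Mir375 (ENSMUSG00000065616.3, chr1:74900658-74900721, minus strand) is intergenic, 1349 bases from Cfap65, with Cryba2 as the next protein-coding gene.

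The libraries held 10782737 reads in replicate 1 and 10201509 in replicate 2, of which 4260561 and 4583025 were counted on the strand of a named miRNA gene. Levels are given as CPM, the gene-strand counts scaled to the same library total. They are not divided by length, since a read is about 1 mature strand, and they also hold differences in how well each sequence ligates and maps. A count of 0 would allow up to 3 counts, or 0.704 CPM in replicate 1 and 0.655 CPM in replicate 2. Markers of heart muscle were checked against the label. Mir499, in a myosin gene of heart muscle, had 5442 and 4126 CPM, Mir208a 2957 and 1367 CPM, and Mir208b 1245 and 1043 CPM. The endothelial Mir126a had 86322 and 137860 CPM. The other 4 of 7 heart muscle markers, the copies of Mir1a and Mir133a, had 1.14 to 48.4 CPM on average, and their levels are uncertain because each has 20 nt or more in common with a further miRNA gene.

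Each of the 6 genes reached 10 counts in both hearts, the minimum for calling a gene detected, as did 346 of the 2202 genes (15.7%). Together they had 822 counts in replicate 1 and 1342 in replicate 2. These are 0.0193% (exact 95% Clopper-Pearson interval 0.0180 to 0.0207) and 0.0293% (0.0277 to 0.0309) of the gene counts, a mean of 0.0243% ± 0.00706 (SD, n = 2). Mir122 gave 39.5% of the counts of the 6 genes in replicate 1 and 48.1% in replicate 2. These intervals and floors do not cover more than counting error, as molecular identifiers are not mentioned. In bulk tissue, fewer cells of a type and less RNA per cell cannot be told apart.

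**Figure D1:**
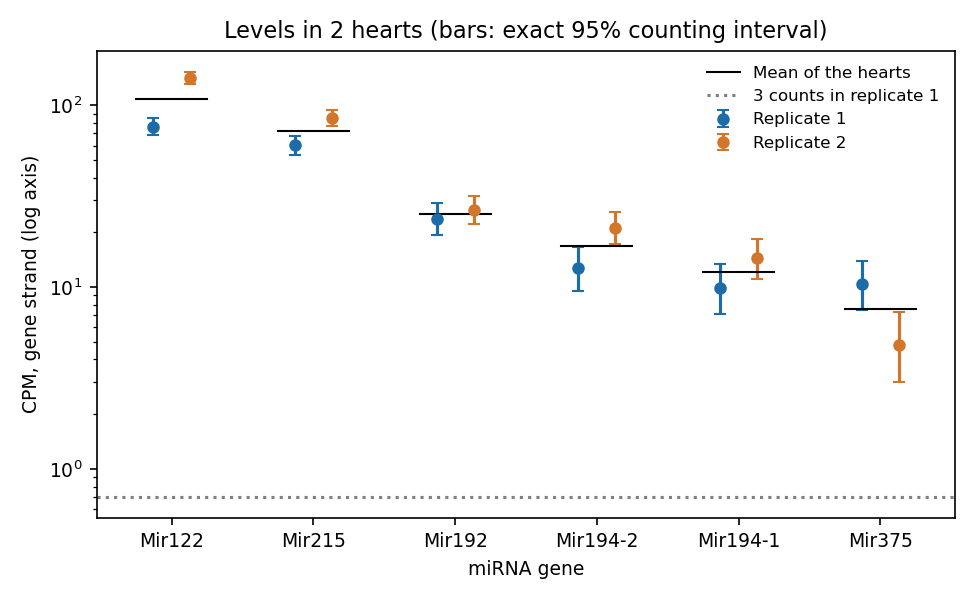
CPM on the gene strand (log axis) of the 6 genes, with 1 point per heart, bars for the exact 95% counting interval, black lines for the mean and a dotted line at 3 counts in replicate 1. The points run from 141 CPM for Mir122 to 4.80 CPM for Mir375, both in replicate 2, and all lie above the dotted line.

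Mir122 stood highest. It had 325 counts in replicate 1, or 76.3 CPM (exact 95% Poisson interval 68.2 to 85.0), and 646 in replicate 2, or 141 CPM (130.3 to 152), a mean of 109 ± 45.7 CPM (SD, n = 2). Replicate 2 was the higher heart, and the counting intervals did not overlap. By mean CPM Mir122 ranked 158 among all genes, above 54.3% of the 346 detected genes. The level of Mir499 exceeded it 71.3-fold (replicate 1) and 29.3-fold (replicate 2). Mir122 (ENSMUSG00000065402.1) lies on chromosome 18 (65248861 to 65248926, plus strand, mm10) within an exon of the annotated noncoding gene AC157910.3. Its hairpin shared at most 12 nt with another miRNA gene of M21. That search did not cover the RefSeq gene Mir122b, which lies within the span of Mir122.

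Mir215 followed, with 256 counts in replicate 1, or 60.1 CPM (53.0 to 67.9), and 389 in replicate 2, or 84.9 CPM (76.7 to 93.7), a mean of 72.5 ± 17.5 CPM. It too was higher in replicate 2, without overlap of the intervals. Mir192, which has the same seed, had 101 counts, or 23.7 CPM (19.3 to 28.8), and 122 counts, or 26.6 CPM (22.1 to 31.8), a mean of 25.2 ± 2.06 CPM. Its hearts overlapped in counting error, and of the 6 genes its SD was the smallest share of its mean, 8.19%, against 24.2% for Mir215 and 42.1% for Mir122. Mir192 ranked 227 and Mir215 ranked 182 among all genes.

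Mir194-2 had 54 counts in replicate 1 and 97 in replicate 2, or 12.7 and 21.2 CPM, a mean of 16.9 ± 6.004 CPM. Mir194-1 had 42 and 66 counts, or 9.86 and 14.4 CPM, a mean of 12.1 ± 3.21 CPM. Both copies were higher in replicate 2, and the counting intervals of the hearts overlapped for Mir194-1 (7.10 to 13.3 and 11.1 to 18.3 CPM) but not for Mir194-2 (9.52 to 16.5 and 17.2 to 25.8 CPM). These counts leave out every read that fits both hairpins.

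Mir375, the endocrine pancreas gene, stood lowest. It had 44 counts in replicate 1, or 10.3 CPM (7.504 to 13.9), and 22 in replicate 2, or 4.80 CPM (3.01 to 7.27), a mean of 7.56 ± 3.91 CPM. It was the sole member higher in replicate 1, and the intervals did not overlap. By mean CPM Mir375 ranked 293 and lay above 15.3% of the detected genes. The level of Mir499 exceeded that of Mir375 527-fold (replicate 1) and 859.6-fold (replicate 2).

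By mean CPM the order was Mir122, Mir215, Mir192, Mir194-2, Mir194-1 and Mir375. The places of Mir194-2 and Mir194-1 are uncertain, since their counts leave out every read that fits both hairpins. Mir122 was above Mir215 within each heart, beyond the counting intervals, but Mir215 in replicate 2 (84.9 CPM) exceeded Mir122 in replicate 1 (76.3 CPM). Mir215 and Mir192 were separated in every comparison of the hearts, with a ratio of mean CPM of 2.88. Mir192 was above Mir194-2 in both hearts, yet in replicate 2 their counting intervals overlapped. The counting intervals of Mir194-2 and Mir194-1 overlapped within each heart. The interval of their log2 ratio in replicate 2 (0.09 to 1.03) nevertheless left out equal counts. Mir375 had 44 counts against 42 for Mir194-1 in replicate 1, where their counting intervals overlapped, and 22 against 66 in replicate 2, where they did not.

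**Figure D2:**
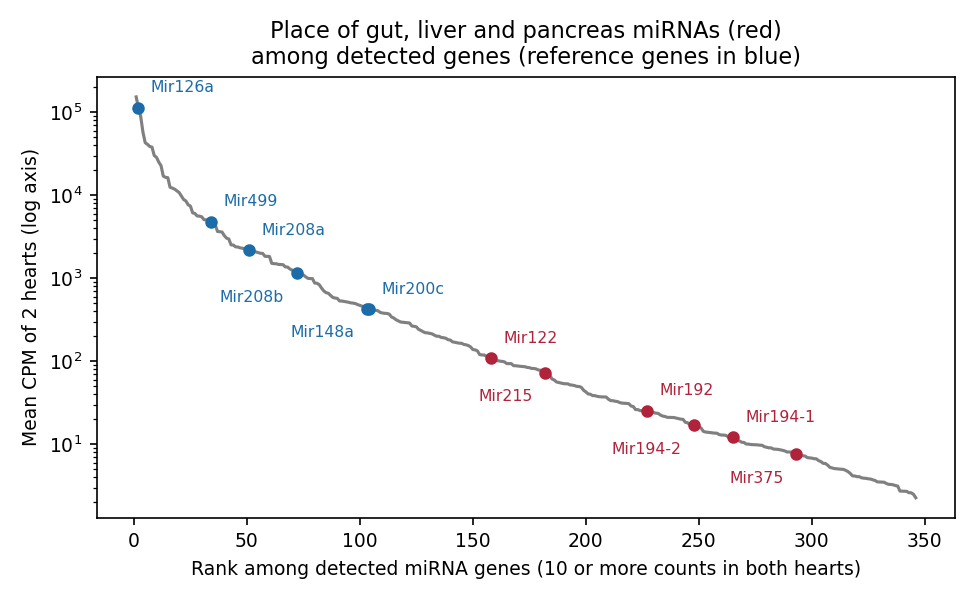
Mean CPM of the 2 hearts (log axis) against rank for the 346 detected miRNA genes (grey line), with the gut, liver and pancreas miRNAs in red and reference genes in blue. The red points lie between rank 158 (Mir122) and rank 293 (Mir375), below Mir208b at 1144 CPM and below Mir200c and Mir148a at 419.9 and 428 CPM.

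Within the clusters, the genes of the miR-192/215 seed family had more counts than their miR-194 partners. The counts of Mir215 were 6.10 times those of Mir194-1 in replicate 1 (4.39 to 8.66, exact 95% interval) and 5.89 times in replicate 2 (4.53 to 7.77), so the hearts gave nearly the same ratio. Those of Mir192 were 1.87 times those of Mir194-2 in replicate 1 (1.33 to 2.65) and 1.26 times in replicate 2 (0.955 to 1.66), where the interval spans equal counts. Both ratios lack the miR-194-5p reads that fit both copies, so they are uncertain.

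The copies on chromosome 1 and chromosome 19 were not equally counted. In the shared seed family, Mir192 had 0.395 of the counts of Mir215 in replicate 1 (0.310 to 0.499) and 0.314 in replicate 2 (0.254 to 0.385), which makes Mir215 2.53 and 3.19 times as high. In the miR-194 pair the order was the opposite, with Mir194-2 above Mir194-1 by a log2 ratio of 0.36 (-0.25 to 0.98) in replicate 1 and 0.56 (0.09 to 1.03) in replicate 2. The first of these intervals spans equality, so the order of the miR-194 copies was not separable from equal counts in replicate 1. Summed over each cluster, the Mir194-1 and Mir215 cluster had 298 and 455 counts, against 155 and 219 for the Mir194-2 and Mir192 cluster, a ratio of 1.92 (1.58 to 2.35) and 2.08 (1.76 to 2.45). Ratios of the miR-194 pair and of the clusters lack the miR-194-5p reads that fit both copies, so they are uncertain. Mir192 and Mir215 together had 357 and 511 counts, or 83.8 and 111 CPM. The shared seed lies in their 5p strands alone, and how many of these counts were 5p reads is not known.

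**Figure D3:**
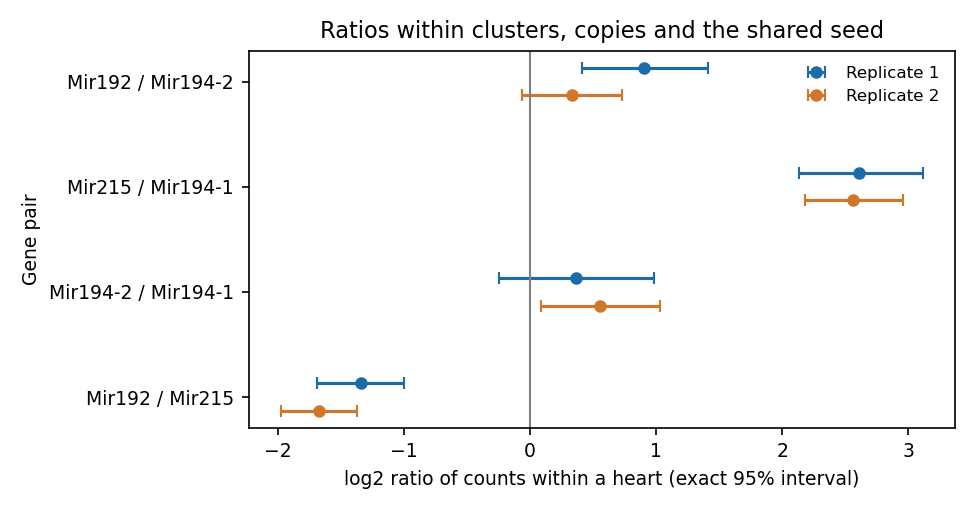
Log2 ratio of counts between pairs of genes within each heart, with 1 point per heart and bars for the exact 95% interval; the vertical line marks equal counts. Mir215 over Mir194-1 is 2.61 and 2.56, Mir192 over Mir215 is below 0 in both hearts, and the bars of Mir192 over Mir194-2 in replicate 2 and of Mir194-2 over Mir194-1 in replicate 1 cross the line.

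Mir122 was also set against Mir192 and Mir375. It had 3.22 times the counts of Mir192 in replicate 1 (2.57 to 4.06) and 5.30 times in replicate 2 (4.36 to 6.48), intervals that did not overlap. Against Mir375 it had 7.39 times the counts in replicate 1 and 29.4 times in replicate 2. The log2 ratio of Mir375 over Mir122 was -2.88 (-3.37 to -2.43) and -4.88 (-5.56 to -4.27), the widest gap between hearts among the 6 pairs of genes examined.

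The hearts were then compared gene by gene with an exact two-sided binomial test on the counts of the 2 libraries, scaled by TMM factors, over the 375 genes whose counts in both hearts summed to at least 20. This test compares these libraries, not conditions, and asks whether a difference exceeds counting error. It called 207 of the 375 genes (55.2%) at a Benjamini-Hochberg adjusted p under 0.05, with 98 higher in replicate 2 (26.1%) and 109 higher in replicate 1 (29.1%). Of the 6 members, Mir122, Mir194-2 and Mir215 were higher in replicate 2 and Mir375 was higher in replicate 1, so with 55.2% of genes called a difference of this kind was common among all genes. The median log2 ratio of replicate 2 over replicate 1 was 0.59 over the 6 members and -0.02 over the genes tested.

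Mir122 was 1.93-fold higher in replicate 2 (1.69 to 2.22, log2 ratio 0.95, adjusted p = 9.6e-23 by the exact binomial test). Mir194-2 was 1.74-fold higher (1.24 to 2.49, adjusted p = 0.0018 by that exact test) and Mir215 1.48-fold higher (1.26 to 1.74, adjusted p = 2.9e-06). Mir194-1 had a log2 ratio of 0.61 (0.03 to 1.21) and missed the threshold after adjustment (adjusted p = 0.061). It passed when genes under a summed count of 100 were left out (adjusted p = 0.048), and its adjusted p ran from 0.048 to 0.12 over the settings tried. Mir192 had a log2 ratio of 0.23 (-0.16 to 0.63, adjusted p = 0.35), an interval that holds no difference and a 1.55-fold rise alike. Mir375 had a log2 ratio of -1.02 (-1.85 to -0.27, adjusted p = 0.013, and 0.0063 to 0.026 over the settings in which it was tested). Among the genes tested, 19 had a lower ratio than Mir375, and 44 (11.7%) were 2-fold or more apart in either direction.

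**Figure D4:**
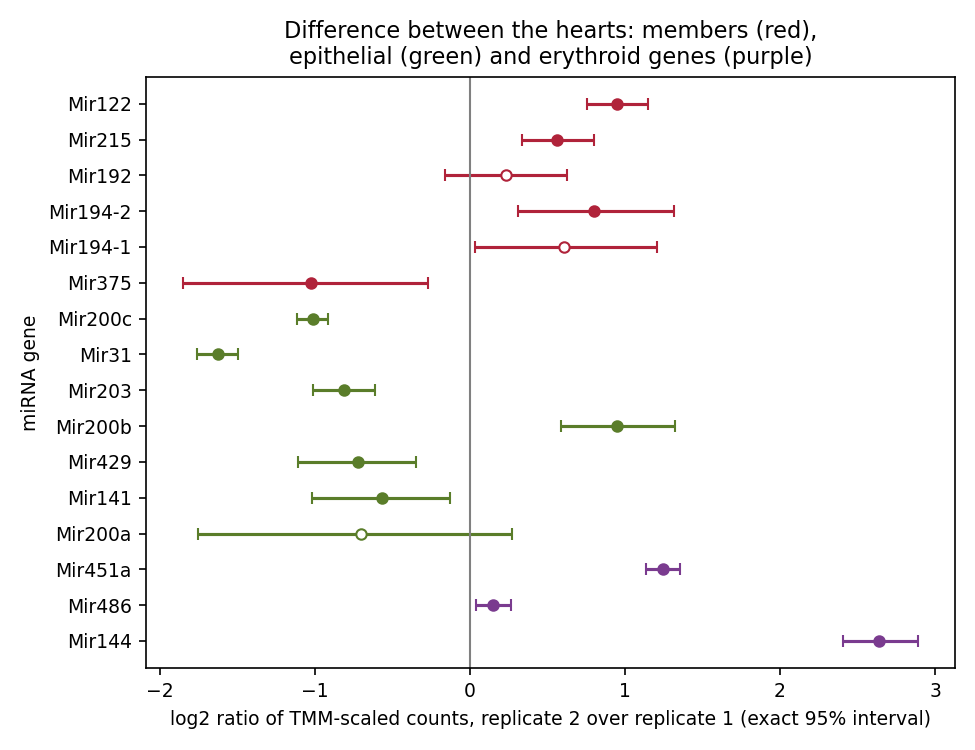
Log2 ratio of TMM-scaled counts, replicate 2 over replicate 1, with bars for the exact 95% interval, for the 6 members (red), 7 epithelial genes (green) and 3 erythroid genes (purple); filled points passed the adjusted threshold. Mir122, at 0.95, lies to the right of the line at 0, while Mir375, at -1.02, lies to the left, as do Mir200c (-1.01) and Mir31 (-1.62).

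Other genes known from the same organs were counted at a wide range of levels. Of 4 genes known from acinar pancreas, Mir148a, which many tissues express, had 333 and 522 CPM, while Mir217 had 14 and 7 counts, Mir216b 1 and 2, and Mir216a 1 and 0. Mir148a was higher in replicate 2 (log2 ratio 0.72), and Mir217 did not pass the test (-0.99, -2.59 to 0.37). Mir802, known from liver, pancreas and kidney, had 0 counts in both hearts, which allows up to 0.704 CPM in replicate 1. Of 4 genes known from islets, Mir184 had 95.8 and 80.5 CPM, Mir7-1 13.1 and 12.7 CPM, Mir7b 3.05 and 1.75 CPM and Mir7-2 0.235 and 0.436 CPM. None of the 3 islet genes tested passed. Mir7-1 and Mir7-2 each have 20 nt or more in common with a further miRNA gene, so their levels are uncertain. The level of Mir375, 10.3 and 4.80 CPM, lay below those counted for Mir184 and Mir7-1 and above those for Mir7b and Mir7-2 in each heart.

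Of 7 genes known from gut and other epithelia, all were detected, with a median of 31.8 CPM against 21.04 CPM over the 6 members, 55.5 CPM over the 375 genes tested and 0 over all genes. Mir200c, of a family that maintains epithelial identity, had 569.9 and 269.9 CPM, Mir31 had 440.1 and 136 CPM, and Mir203, known from stratified epithelium, had 131 and 71.6 CPM. Of the 7 epithelial genes, 5 were higher in replicate 1 and 1, Mir200b (log2 ratio 0.95), was higher in replicate 2. Their summed level went from 1231 CPM in replicate 1 to 559.7 CPM in replicate 2, while that of the 6 members went from 193 to 293 CPM.

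Blood genes also differed between the hearts. Of the 3 erythroid genes, all were higher in replicate 2, with Mir451a at 230.02 and 521 CPM, Mir144 at 38.3 and 228 CPM and Mir486 at 281 and 298 CPM. The summed erythroid level was 549.7 CPM in replicate 1 and 1048 CPM in replicate 2. Of the 3 white blood cell genes, Mir142 was higher in replicate 2 (log2 ratio 0.33), and Mir150 and Mir223 did not pass. The 3 erythroid genes thus differed in the direction of Mir122, Mir194-2 and Mir215, and 5 of 7 epithelial genes in that of Mir375. For Mir486 the log2 ratio was only 0.15. Other lists differed as well. The endothelial Mir126a was higher in replicate 2 (log2 ratio 0.74). Of 6 heart muscle genes tested, 4 were higher in replicate 1 and 1 in replicate 2. Among all genes tested, 26.1% were higher in replicate 2 and 29.1% in replicate 1. The part of blood, epithelium or any other cell type in the differences of the 6 members was not tested.

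Genes nearest in level to each member were sought by the Euclidean distance of log2(CPM + 1) over the 2 hearts among 345 other detected genes. This likeness is one of level in 2 libraries. Mir381, from the imprinted Dlk1-Dio3 region, was nearest to Mir122, with 347 and 681 counts. Mir504 was nearest to Mir192, with 102 and 122 counts, and Mir1249 to Mir215, with 285 and 369. Mir181b-1 (46 and 63 counts) was nearest to Mir194-1 and Mir128-2 (57 and 96) to Mir194-2, but both have 20 nt or more in common with a further miRNA gene and their levels are uncertain. Mir378b was nearest to Mir375, with 45 and 23 counts. The genes next nearest were Mir1843b for Mir122, which shares such a run, Mir323 for Mir192, Mir1968 for Mir194-1, Mir666 for Mir194-2, Mir329 for Mir215 and Mir201 for Mir375.

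On the strand opposite to the gene, Mir122 had 19 reads in replicate 1 and 17 in replicate 2. These are 5.52% (exact 95% Clopper-Pearson interval 3.36 to 8.49) and 2.56% (1.501 to 4.07) of its reads on both strands, and the intervals overlapped. Mir192, Mir194-1, Mir194-2 and Mir215 had 0 opposite reads in both hearts, which for Mir215, the most deeply counted of them, allows up to 1.17% in replicate 1 and 0.771% in replicate 2. Mir375 had 0 and 1. Over the 2138 genes with no annotated miRNA gene on the other strand, opposite reads numbered 93 and 69 in all, or 0.00299% and 0.00222% of the reads on both strands. Mir122 had the most of these genes in each heart, with 20.4% and 24.6% of such reads. The other genes with more than 3 in both hearts were Mir203, with 12 and 8 opposite reads against 560 and 328 gene-strand counts, and Mir5620, with 5 and 6 against 12 in each heart. All 132 detected genes of this kind with more gene-strand counts than Mir122 in both hearts had fewer opposite reads than it in both. M21 lists no miRNA gene opposite Mir122, but the RefSeq gene table on GRCm38.p6 lists Mir122b at 65248863 to 65248921 of chromosome 18, within the span of Mir122, without giving its strand.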

How the data were processed

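MicroRNA-seq counts of 2 hearts were used. Each library has 1 deposited table, made on mm10 with GENCODE M21 per the file headers. The deposited values are raw read counts per gene on the gene strand (the measure used here), on the opposite strand and irrespective of strand, with 4 category rows that were left out of library sizes. Of the reads of replicates 1 and 2, 38.9% and 38.0% were multimapping, 16.9% and 12.2% unmapped and 4.71% and 4.89% outside features. The aligner and counter were not given in the sources used here. Identifiers were matched to M21 for all 2202 genes; sequences came from RefSeq tables and shared runs from M21 transcripts. Sequence matching covered both strands.

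CPM used gene-strand totals. TMM factors came from edgeR 4.0.16 (R 4.3.3), alternative size factors from DESeq2 1.42.0, and intervals and tests from scipy 1.17.1 (Python 3.11.15). The DESeq2 size factors were 1.00 for both hearts, so that setting compared unscaled counts. A prior count of 0.5 was added for ratios between hearts. edgeR's quasi-likelihood test was not used, since 1 group holds no contrast. Named genes were the 6 members, up to 3 leading genes of each list (all of lists of 4 or fewer), heart markers and the 2 genes nearest in level to each member; Mir200b, Mir5620 and the Mir1a and Mir133a copies were named after their values were seen. The members and lists were chosen with earlier results of these data known. Alternatives were the unstranded counts, other denominators, scalings, prior counts and minimums, and leaving out each heart.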

Additional observations from a re-analysis of the deposited data

Results flagged for a closer look

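Mir122 had reads on the strand opposite to the gene, 19 in replicate 1 and 17 in replicate 2, above the 3 that a count of 0 allows. They lie outside the gene-strand counts on which the levels rest, and the other 5 genes had at most 1 such read in a heart.

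Reads placed at more than 1 position numbered 4193785 in replicate 1 and 3872896 in replicate 2 and enter no gene count. Reads holding the 22 bases of miR-194-5p alone belong among them, since Mir194-1 and Mir194-2 both hold that run; how many there were was not analysed here.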

How the results depend on the processing

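No paired analysis was possible because the study has a single group. Of 102 values under alternatives, 26 leave out a heart, which with 2 hearts cannot move a mean by more than 1 SD, and 76 change another choice. Of the 76, 61 stayed within 1 SD of the hearts, within 1.5 times for counts, or on the same side of the threshold. The other 15 moved, and no direction changed. Some of the 61 were fixed in advance. The prior count does not enter the test, and ratios of pairs without opposite reads are the same on unstranded counts. Changing the scaling left the same 4 members called, while the prior count could not change a call. Without regard to strand, whose total is smaller, CPM were 162 for Mir122, 35.9 for Mir192, 17.4 for Mir194-1, 24.3 for Mir194-2 and 104 for Mir215, and the share of the 6 genes was 0.0354%. Over all reads they were 46.7 for Mir122, 10.7 for Mir192, 5.18 for Mir194-1, 7.26 for Mir194-2, 30.9 for Mir215 and 3.12 for Mir375, and the share was 0.0104%. Without the most abundant gene Mir192 had 29.7 CPM. Genes that were called and also 2-fold apart numbered 40, against 207. At a summed minimum of 100 Mir375 was not tested and Mir194-1 passed. At a minimum of 50 counts in both hearts 4 of the 6 members were left. Depth limits Mir375 most, at 22 counts in replicate 2.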
